A study of Mus musculus with 6 samples.

Results

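The BCL2 family sets the threshold at which a cell enters mitochondrial apoptosis, and its transcripts were examined here in islets isolated from the pancreas of C57BL/6 males at an age of about 20 weeks. The 10 members were taken by gene name from the 55401 genes of the count table, as 3 pro-survival genes (Bcl2, Bcl2l1 and Mcl1), 2 effector genes (Bax and Bak1) and 5 BH3-only genes (Bid, Bcl2l11, Bbc3, Pmaip1 and Bad). The 3 libraries labelled KO came from Pdgfra fl/fl mice with Pdx1-Cre, and the 3 control libraries from Pdgfra fl/fl mice without it. Pdgfra encodes the platelet-derived growth factor receptor alpha, and the Pdx1 promoter drives Cre across the pancreatic lineage, which includes exocrine as well as endocrine cells. No library with Cre and unfloxed Pdgfra was analysed here, so an effect of Cre and one of the deletion cannot be told apart. The titles number the mice and do not say that each library is 1 animal, so the p-values reflect how far the libraries of a group spread, and that spread may be technical. The title of the series names apoptosis of beta cells, and the comparison asks whether transcripts of the genes that control it differed between KO and control islets.

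In a living cell the pro-survival proteins sit on the outer mitochondrial membrane and hold the effectors BAX and BAK in check. BH3-only proteins carry the signals of stress: some bind and block the pro-survival proteins, and some also activate BAX and BAK directly. Once active, the effectors permeabilise the membrane, cytochrome c leaves the mitochondria and caspases are switched on. Much of this control acts on the proteins by cleavage, phosphorylation or degradation, which transcript counts do not measure.

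What joins the members is the BH3 core, the short helix with which a BH3-only protein docks into the groove of a pro-survival protein. Its coding sequence is shown for 9 members, to let the shared element be seen next to the expression values. Pmaip1 was not searched, so its absence here does not mean that it lacks the core. Each run is 42 bases of coding sequence, 5′ to 3′ on the gene's own strand, from GENCODE vM21 transcripts (GRCm38). Capitals mark the codon of the leucine that opens the core and the 2 codons that close it, for a small residue and the invariant aspartate.
Bcl2 (chr1:106712572-106712613, minus strand): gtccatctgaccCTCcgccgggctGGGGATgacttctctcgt
Bcl2l1 (chr2:152829694-152829735, minus strand): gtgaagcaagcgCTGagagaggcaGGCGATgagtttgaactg
Mcl1 (chr3:95659424-95659465, plus strand): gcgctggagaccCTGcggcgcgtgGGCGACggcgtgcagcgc
Bax (chr7:45465994-45466035, minus strand): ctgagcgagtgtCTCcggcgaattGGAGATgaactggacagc
Bak1 (chr17:27022528-27022569, minus strand): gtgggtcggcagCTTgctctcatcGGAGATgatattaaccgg
Bid (chr6:120897286-120897327, minus strand): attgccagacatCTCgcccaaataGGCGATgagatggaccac
Bcl2l11 (chr2:128147138-128147179, plus strand): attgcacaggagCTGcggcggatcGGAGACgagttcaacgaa
Bbc3 (chr7:16313761-16313802, plus strand): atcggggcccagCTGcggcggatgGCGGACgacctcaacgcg
Bad (chr19:6950780-6950821, plus strand): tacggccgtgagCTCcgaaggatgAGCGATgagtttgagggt

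Over the 18 bases from the leucine codon to the aspartate codon, the 36 pairs of these genes shared 7 to 15 bases, with a median of 11. Bcl2l11 and Bbc3 were the most alike, at 15 of 18 identical bases, and Bcl2l1 and Bak1 the least, at 7. The core was found by its leucine, small residue and aspartate, so identity in those codons follows in part from the search. No level of identity by chance was computed. The core lay in every annotated coding transcript with complete ends of these genes except Bcl2l11, where 4 of 5 held it. The table gives 1 count per gene, so splice forms with opposing roles, such as the long and short forms of Bcl2l1, were counted together.

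All 10 members passed the filter on low counts. None differed between KO and control islets (edgeR quasi-likelihood test, Benjamini-Hochberg adjusted p under 0.05 over 14212 genes), a threshold that 0.0704% of all tested genes passed, and none did so with DESeq2, which gave no adjusted p for Pmaip1. Of the members, 6 had positive and 4 negative log2 fold changes, with a median of 0.01, beside a median of -0.01 over all tested genes. Bak1 was the only member with an unadjusted p under 0.05, where 7.37% of all genes had one. It was also the only member whose KO and control levels did not overlap, where 13.9% of all genes did not. Levels below are CPM (counts scaled to library size with TMM factors), and levels compared between genes are CPM per kilobase of exonic length.

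**Figure D1:**
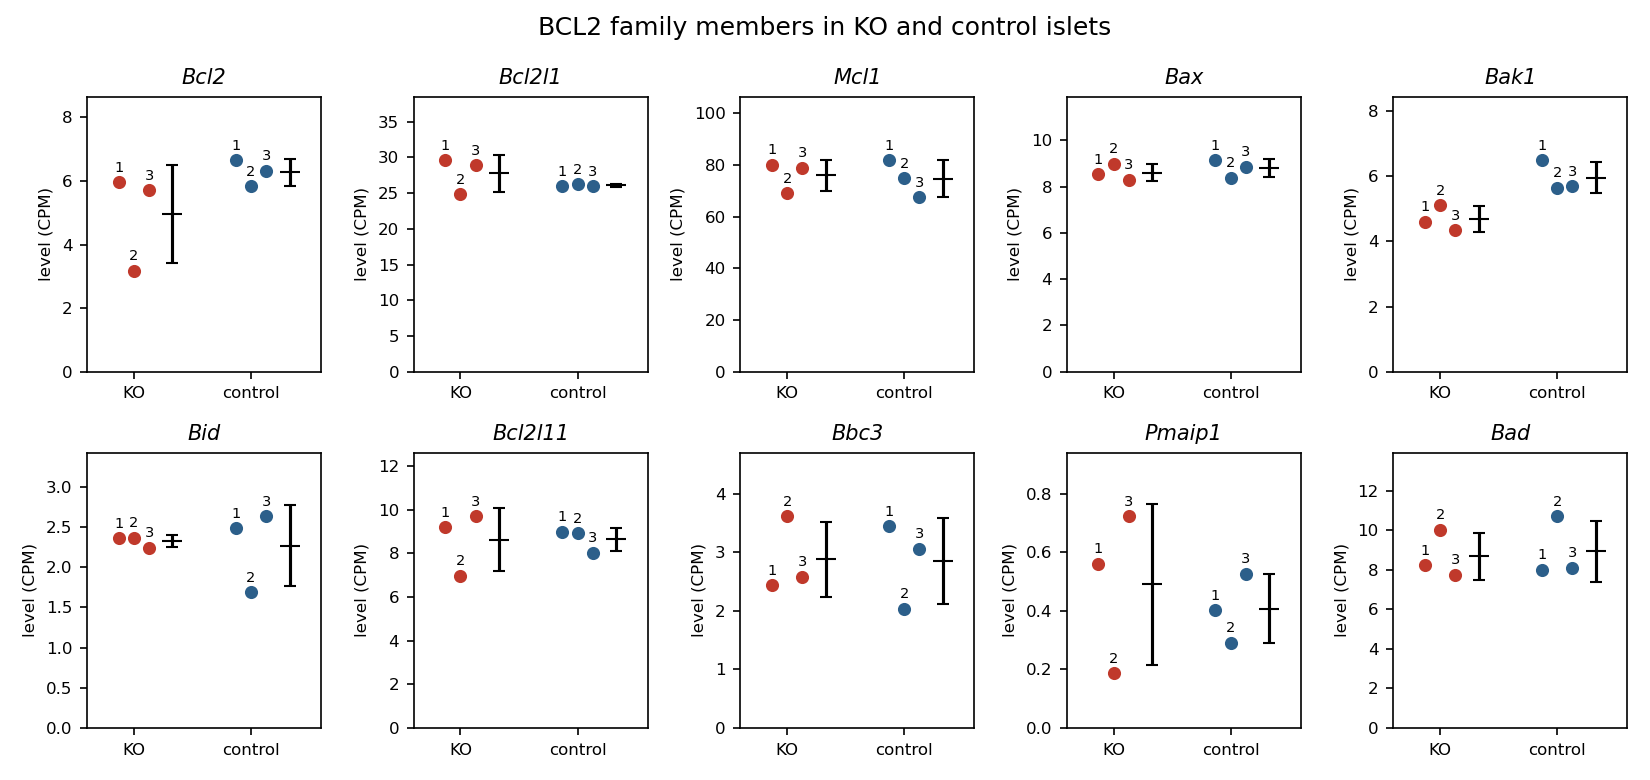
Level of each of the 10 members in CPM (y axis, from 0) in the 3 KO and 3 control libraries. Points are libraries with their replicate number, and the bar beside them is the mean with its SD. Only Bak1 has all KO points below all control points, and KO 2 stands low for Bcl2, at 3.18 CPM.

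Mcl1, which encodes a short-lived pro-survival protein that must be made continuously, had the highest level per length of the 10 members. Mcl1 (ENSMUSG00000038612.16, chromosome 3, 95658788 to 95663176, GRCm38) had 80.0, 69.1 and 78.9 CPM in KO 1, 2 and 3, against 81.9, 74.8 and 67.5 CPM in controls 1, 2 and 3. All KO libraries lay within the range of the controls. Its log2 fold change was 0.03 (edgeR adjusted p = 0.958, SE 0.11, 95% interval -0.21 to 0.26). That interval spans a KO level from 0.864 to 1.20 times that of controls.

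Bcl2l1, which encodes BCL-XL, the pro-survival protein known to protect adult beta cells from induced death, was measured with the narrowest interval of all members. Bcl2l1 (ENSMUSG00000007659.18, chromosome 2, 152780668 to 152831728) had 29.6, 24.8 and 28.9 CPM in KO 1, 2 and 3, against 25.99, 26.27 and 25.99 CPM in controls. KO 1 and 3 stood above all controls and KO 2 below them. Its log2 fold change was 0.09 (edgeR adjusted p = 0.837, SE 0.10, 95% interval -0.12 to 0.31).

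Bcl2, the founding member of the family, was the lowest pro-survival member per length. Bcl2 (ENSMUSG00000057329.7, chromosome 1, 106538178 to 106714274) had 5.97, 3.18 and 5.71 CPM in KO 1, 2 and 3, from 149, 51 and 150 counts. In controls 1, 2 and 3 it had 6.66, 5.83 and 6.33 CPM, from 83, 100 and 192 counts. KO 2 stood far below the other libraries, while KO 1 lay within the range of the controls and KO 3 just under it. The log2 fold change was -0.32 (edgeR adjusted p = 0.777, SE 0.22, 95% interval -0.82 to 0.18), and without KO 2 it was -0.10 (edgeR adjusted p = 0.838). In KO 2, markers of several non-endocrine cells were also at their lowest. Of 9 fibroblast and stellate cell markers, 8 had negative log2 fold changes, beside 52.2% of all tested genes, and none was at 0 in all libraries. Their summed level was 180, 46.0 and 242 CPM in KO 1, 2 and 3, against 154 to 302 CPM in controls. The 7 endothelial markers summed to 179 CPM in KO 2 and to 345 CPM at most in KO islets, against 280 to 336 CPM in controls, and 6 of the 7 had negative values. The 7 macrophage markers summed to 80.1 CPM in KO 2, against 89.9 to 103 CPM in controls, with 6 of 7 negative. Among them C1qa went the other way, with its highest level of the 6 libraries in KO 2, at 47.4 CPM. None of the fibroblast and stellate, endothelial or macrophage markers was called (smallest edgeR adjusted p = 0.648). The part of these cells in the Bcl2 value was not tested, and in such mixed tissue fewer cells of a type and less RNA per cell cannot be told apart.

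Both effectors were detected in every library, and Bak1 was the lower of the pair. Bak1 encodes BAK, the effector that resides on the outer mitochondrial membrane. Bak1 (ENSMUSG00000057789.14, chromosome 17, 27019810 to 27029009) had 4.61, 5.11 and 4.34 CPM in KO 1, 2 and 3, against 6.50, 5.65 and 5.70 CPM in controls. Every KO library was below every control, as in 5.94% of all tested genes. The means were 4.69 ± 0.39 CPM in KO and 5.95 ± 0.48 CPM in controls (SD, n = 3 each). The log2 fold change was -0.34 (edgeR adjusted p = 0.674, unadjusted p = 0.0478, SE 0.15, 95% interval -0.68 to -0.004), so it did not pass over all genes, and with DESeq2 the unadjusted p was 0.109.

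The lowest Bak1 level was that of KO 3 and the highest that of control 1, the libraries with the lowest and the highest acinar RNA. The 18 acinar markers, mostly digestive enzymes, summed to 166035 to 323463 CPM in KO and 187131 to 480691 CPM in controls. All 18 had negative log2 fold changes, beside 52.2% of all tested genes, and none was at 0 in all libraries. None was called and all overlapped between the groups (smallest edgeR adjusted p = 0.816). Their levels largely rose and fell together, so their signs are not separate observations. Between KO 3 and control 1, Bak1 did not keep the order of acinar RNA. Control 3, at 187131 CPM of acinar markers, had 5.70 CPM of Bak1, and KO 2, at 323463 CPM, had 5.11 CPM. A link of Bak1 to acinar RNA was not tested. With an acinar score as a covariate the log2 fold change of Bak1 was -0.32 (edgeR adjusted p = 0.602). A ribosomal RNA locus took 5.36 to 18.5% of counts in KO and 3.32 to 4.51% in controls, without overlap. With that locus as a covariate the Bak1 value was -0.40 (edgeR adjusted p = 1.00), and its SE rose from 0.15 to 0.26. Because the share of the locus separates KO from control, this fit cannot fully part the locus from genotype. On the opposite strand, Ggnbp1 overlaps 18.2% of the exonic length of Bak1. Since the strand setting of the counting is not given in the sources used here, reads of the 2 genes may not be fully separated, though Ggnbp1 itself had 18, 8 and 12 counts in KO and 6, 10 and 24 in controls.

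Bax encodes the effector that moves from the cytosol to mitochondria, and it varied the least of all members between libraries of a group. Bax (ENSMUSG00000003873.11, chromosome 7, 45461697 to 45466898) had 8.53, 8.98 and 8.29 CPM in KO 1, 2 and 3, against 9.15, 8.39 and 8.86 CPM in controls. The ranges overlapped over most of their width. The within-group SD was 0.06 on the log2 scale, and the log2 fold change was -0.03 (edgeR adjusted p = 0.954, SE 0.12, 95% interval -0.29 to 0.23). A KO level of Bax above 1.17 times or below 0.816 times that of controls lay outside the interval.

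The BH3-only genes gave log2 fold changes from -0.05 to 0.29, with 4 of 5 positive and a median of 0.01, and none had an unadjusted p under 0.05. Bcl2l11, which encodes BIM, a BH3-only protein that binds every pro-survival protein, had 9.21, 6.99 and 9.70 CPM in KO 1, 2 and 3, against 8.98, 8.91 and 8.04 CPM in controls. KO 2 was the lowest library, while KO 1 and 3 stood above all controls. Its log2 fold change was 0.01 (edgeR adjusted p = 0.988, SE 0.15, 95% interval -0.32 to 0.35). Bcl2l11 lies on chromosome 2 (ENSMUSG00000027381.16, 128126038 to 128162547).

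Bad encodes a protein that is held inactive by 14-3-3 proteins when survival kinases phosphorylate it. Bad (ENSMUSG00000024959.14, chromosome 19, 6941861 to 6951899) had 8.25, 10.04 and 7.76 CPM in KO 1, 2 and 3, against 8.02, 10.7 and 8.10 CPM in controls. In each group replicate 2 stood above the other libraries, and the groups overlapped. The log2 fold change was -0.05 (edgeR adjusted p = 0.952, SE 0.16, 95% interval -0.41 to 0.31). Exons of Gpr137 on the opposite strand cover 20.5% of the exonic length of Bad, and Gpr137 had 94 to 261 counts per library, so part of the Bad counts is uncertain.

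Bbc3 encodes PUMA, a transcriptional target of p53. Bbc3 (ENSMUSG00000002083.13, chromosome 7, 16308393 to 16318205) had 2.44, 3.62 and 2.59 CPM in KO 1, 2 and 3, against 3.45, 2.04 and 3.06 CPM in controls. The groups overlapped, with KO 2 highest and control 2 lowest. The log2 fold change was 0.00 (edgeR adjusted p = 0.998, SE 0.26, 95% interval -0.57 to 0.58), which leaves room for a KO level from 0.673 to 1.49 times that of controls.

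Bid encodes a BH3-only protein that caspase-8 cuts into its active form, linking death receptors to mitochondria. Bid (ENSMUSG00000004446.12, chromosome 6, 120891930 to 120916853) had 2.36, 2.37 and 2.24 CPM in KO 1, 2 and 3, against 2.49, 1.69 and 2.64 CPM in controls. All KO libraries lay inside the range of the controls, of which control 2 was low. The log2 fold change was 0.02 (edgeR adjusted p = 0.985, SE 0.23, 95% interval -0.49 to 0.54). Bid shares 628 exonic bases, or 17.7% of its exonic length, with the oppositely oriented Bcl2l13, which had 396 to 995 counts per library where Bid had 29 to 80, so its counts are uncertain.

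Pmaip1 encodes NOXA, which binds MCL1 and is induced by p53 and by stress of the endoplasmic reticulum. Pmaip1 (ENSMUSG00000024521.8, chromosome 18, 66458533 to 66465565) gave 14, 3 and 19 counts in KO 1, 2 and 3, against 5, 5 and 16 counts in controls, or 0.56, 0.19 and 0.72 CPM against 0.40, 0.29 and 0.53 CPM. KO libraries were both the highest and the lowest of the 6. Its log2 fold change was 0.29 (edgeR adjusted p = 0.904, SE 0.49, 95% interval -0.81 to 1.39). At this depth a KO level from 0.570 to 2.62 times that of controls lay within the interval.

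**Figure D2:**
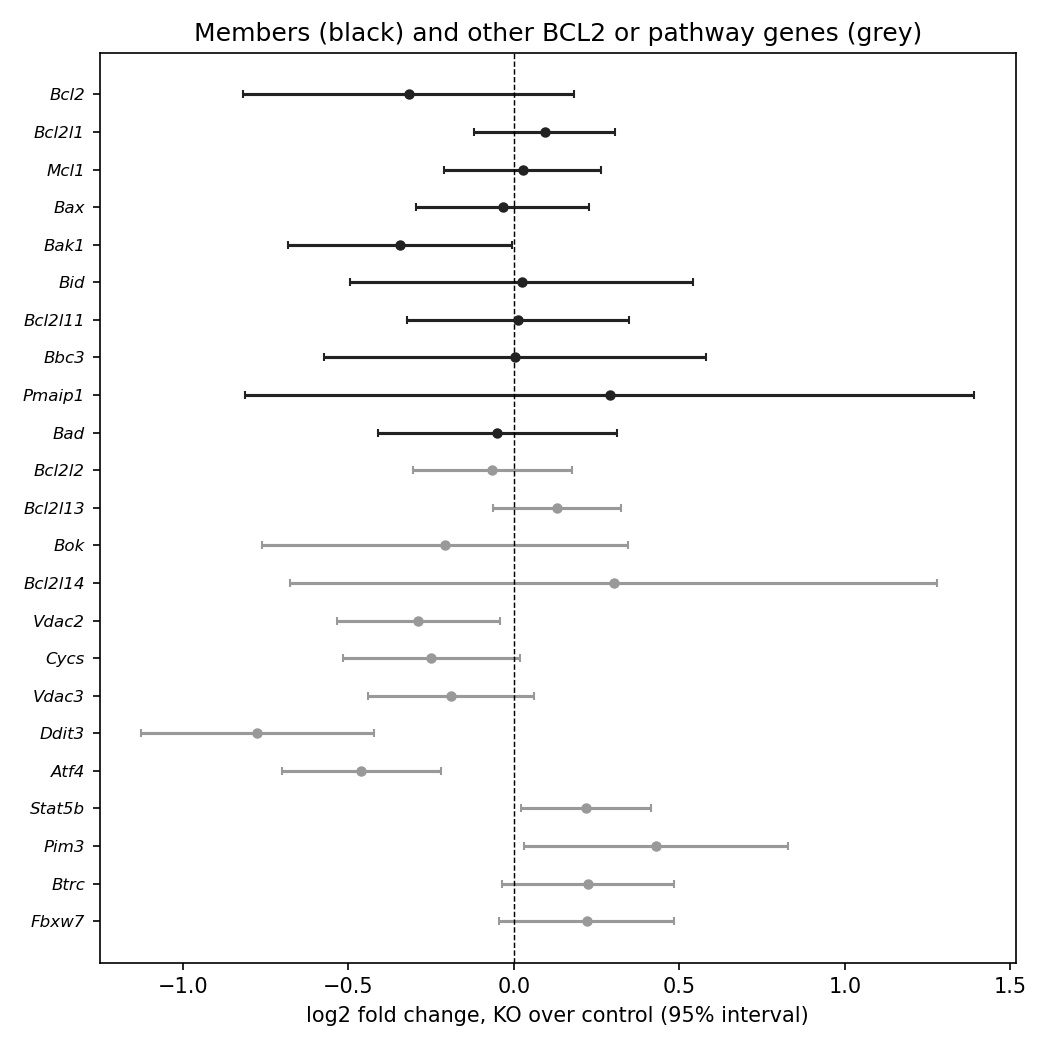
Log2 fold change of KO over control (x axis) with its 95% interval for the 10 members (black) and for 13 other BCL2 or pathway genes with the smallest p of their lists (grey). Of the members, only the interval of Bak1 stays below 0, and that of Pmaip1 is the widest, from -0.81 to 1.39.

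Per kilobase of exonic length and over all 6 libraries, the members ranked Mcl1, Bcl2l1, Bax, Bad, Bak1, Bbc3, Bcl2l11, Bid, Bcl2 and Pmaip1. Mcl1 averaged 22.0 CPM per kilobase, higher than 93.9% of tested genes, and Pmaip1 averaged 0.16, higher than 4.30% of them. The ranges of the libraries did not overlap between Mcl1 at 19.7 to 24.0 and Bcl2l1 at 5.41 to 6.46 CPM per kilobase. They overlapped between Bcl2l1 and Bax, between Bbc3 and Bcl2l11 and between Bid and Bcl2, so the order within these pairs is not settled. The order rests on the deposited exonic length, which counts every annotated exon whether or not islets use it, and Bcl2 and Bcl2l11 have the longest at 9157 and 8029 bases.

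Mcl1 made up 51.8 ± 2.2% of the summed level per kilobase of the 10 members in KO and 50.8 ± 2.0% in controls (SD, n = 3 each). All 3 pro-survival members together made up 67.1 ± 3.3% in KO and 65.6 ± 1.2% in controls, and the effectors 17.3 ± 1.5% in KO and 18.8 ± 0.9% in controls. The BH3-only members made up 15.6 ± 1.8% in KO and 15.6 ± 0.8% in controls. Each of these differences between the groups was smaller than the larger of its 2 SDs.

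The ratio of the 3 pro-survival to the 7 pro-death members, from summed levels per kilobase, was 2.22, 1.72 and 2.24 in KO 1, 2 and 3, against 1.99, 1.95 and 1.80 in controls 1, 2 and 3. KO 2 was the lowest of the 6 libraries and KO 1 and 3 the highest, so the groups overlapped. The mean was 2.06 ± 0.29 in KO and 1.91 ± 0.10 in controls (SD, n = 3 each), a log2 difference of 0.10 beside a pooled SD of 0.16. Because it is a score over chosen members, no p is given for it. With each gene weighted equally on the log2 scale the difference was -0.06, the opposite sign, so it had no stable direction. With Bax and Bak1 alone as the pro-death side it was 0.15, and with the BH3-only members alone it was 0.04. From levels not divided by length it was 0.08, and with other pro-survival, effector and BH3-only genes added it was 0.10. Without Mcl1 it was 0.11, with the ratio at 0.47 ± 0.08 in KO and 0.43 ± 0.01 in controls.

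**Figure D3:**
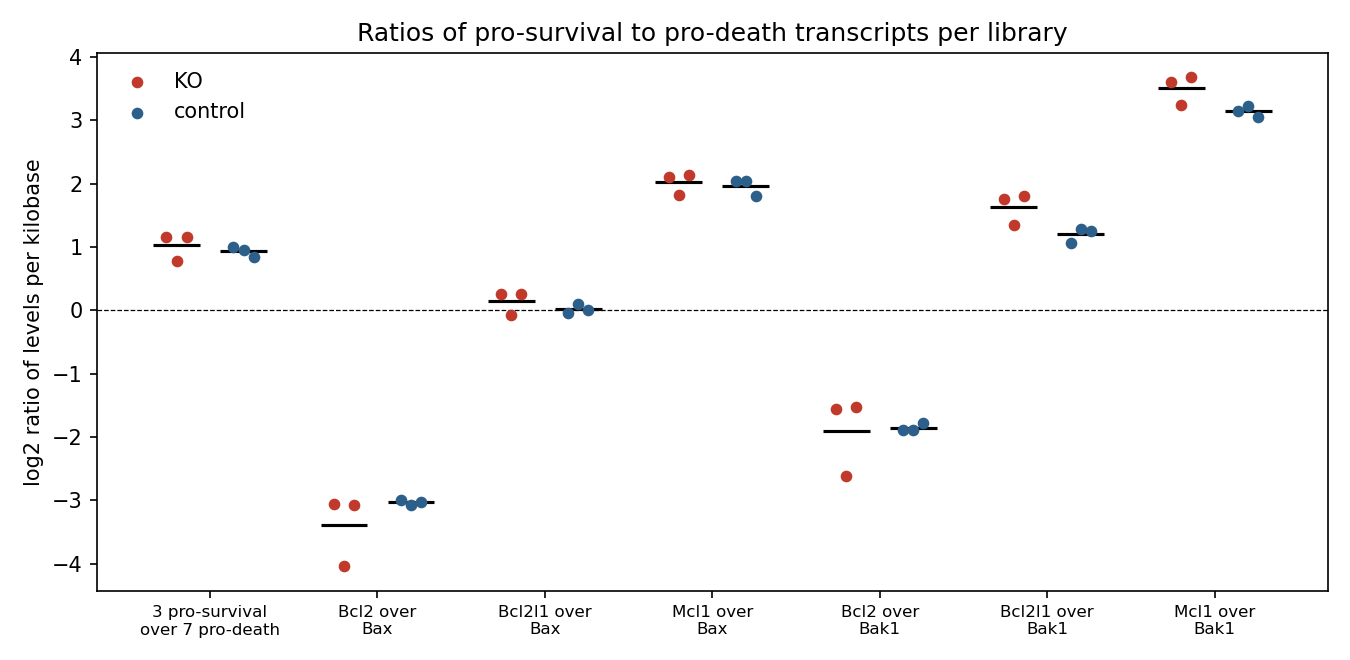
Log2 ratio of levels per kilobase (y axis) in each KO and control library, for all members and for each of the 6 pairs of a pro-survival gene over an effector. Points are libraries and lines are group means. The groups overlap for the ratio of all members, for each pair with Bax and for Bcl2 over Bak1, while Bcl2l1 over Bak1 and Mcl1 over Bak1 are higher in all KO libraries.

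The ratio of Bcl2 to Bax, often read as a balance of survival and death, was 0.120, 0.0610 and 0.118 in KO 1, 2 and 3, against 0.125, 0.120 and 0.123 in controls. KO 2 alone stood apart, and the log2 difference of -0.36 became -0.04 without it. Of the 6 pairs of a pro-survival gene over an effector, 2 did not overlap between the groups, both with Bak1 below the line. Bcl2l1 over Bak1 was 3.38, 2.55 and 3.49 in KO 1, 2 and 3, against 2.10, 2.44 and 2.39 in controls. Mcl1 over Bak1 was 12.2, 9.51 and 12.8 in KO 1, 2 and 3, against 8.88, 9.32 and 8.34 in controls. In both pairs KO 2 lay close to the controls, and the log2 differences were 0.43 and 0.37. Both share the Bak1 values given above and are no further evidence beside them.

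**Figure D4:**
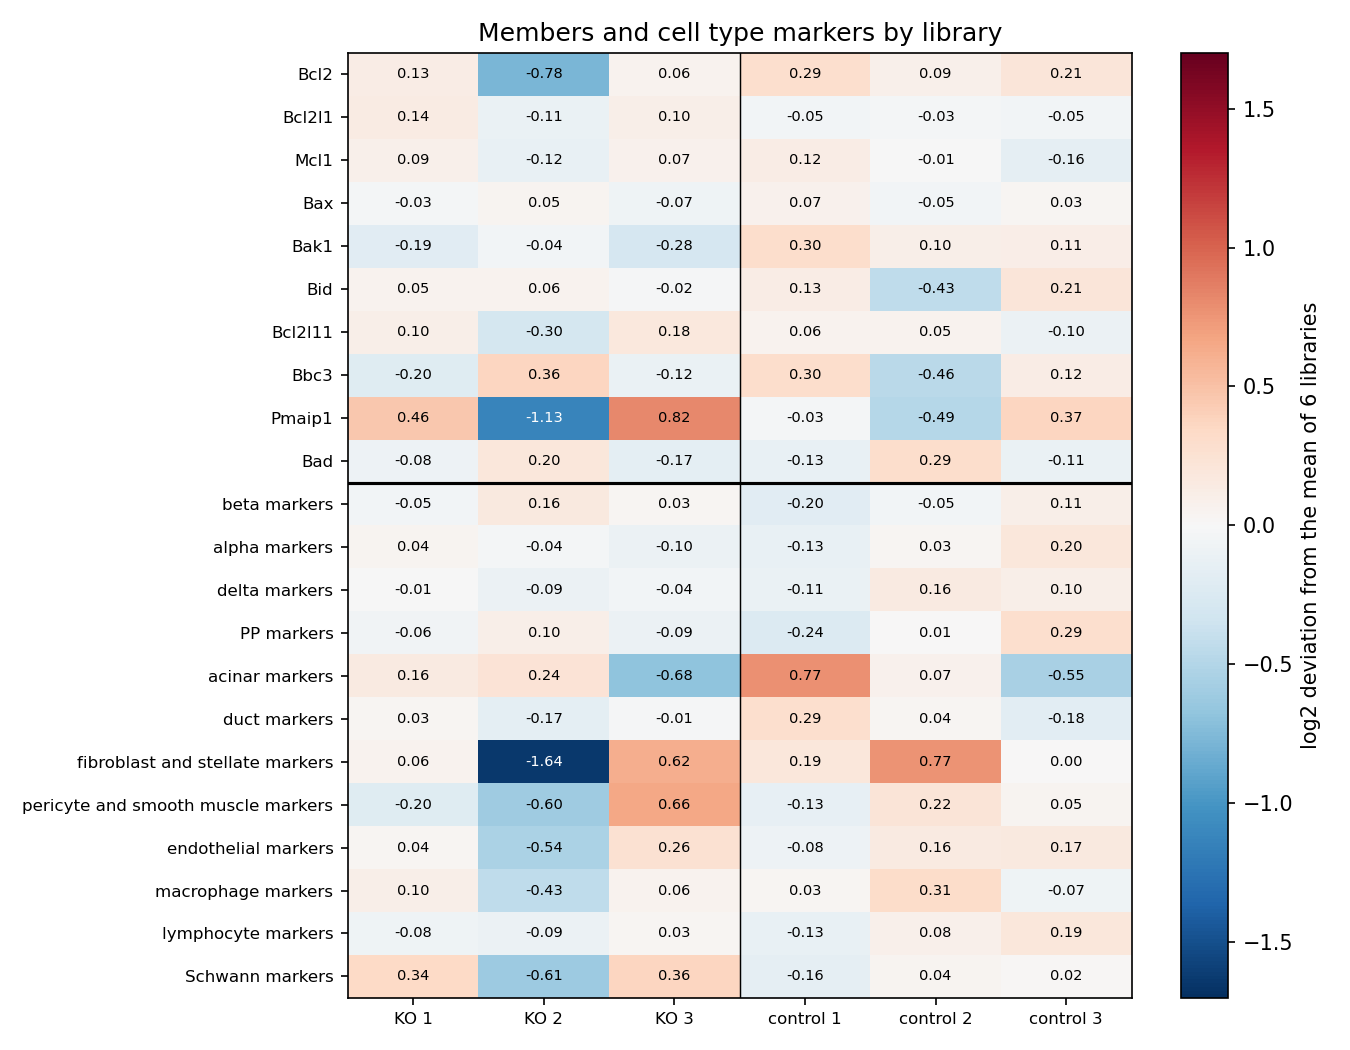
Log2 deviation of each member (upper rows) and of each cell type marker list (lower rows) from its mean over the 6 libraries, as colour and printed value, with KO libraries left of controls. KO 2 is lowest for Bcl2 at -0.78 and for fibroblast and stellate markers at -1.64, while Bax lies between -0.07 and 0.07 in every library.

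Members deviated differently in the same library. In KO 2, Bcl2, Bcl2l11 and Pmaip1 were among the genes at their lowest, by 0.78, 0.30 and 1.13 below their means on the log2 scale, and Bbc3 was at its highest, 0.36 above. The within-group SD on the log2 scale was 0.06 for Bax, 0.10 for Bcl2l1, 0.12 for Bak1 and 0.13 for Mcl1. It was 0.36 for Bcl2, 0.35 for Bbc3 and 0.79 for Pmaip1, the largest of the members. Beta cell markers were present in every library, with Ins1 and Ins2 taking 9.48 to 11.7% of counts in KO and 7.04 to 13.3% in controls, and none of the 10 beta cell markers was called. Of these, 3 did not overlap between the groups, beside 13.9% of all tested genes: Mafa was lower, and Nkx6-1 and Slc2a2 higher, in every KO library. Slc2a2 had a log2 fold change of 0.36 (unadjusted p = 0.0282, edgeR adjusted p = 0.637). The acinar markers took 17.4 to 31.3% of counts in KO and 22.5 to 39.9% in controls, although the samples are labelled with beta cell as their cell type. Library totals were 18247741 to 25039394 counts in KO and 15026094 to 25299689 in controls. Pdgfra had 93, 25 and 125 counts in KO and 42, 88 and 116 in controls (log2 fold change -0.26, SE 0.34, edgeR adjusted p = 0.869), and since counts are summed over all exons it does not check the genotype.

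Other genes of the family were read for comparison. Of 5 other pro-survival genes, 1 passed the filter, Bcl2l2, which encodes BCL-W. Bcl2l2 had 49.6, 50.8 and 43.1 CPM in KO 1, 2 and 3, against 55.7, 48.5 and 46.0 CPM in controls, with overlapping groups and a log2 fold change of -0.06 (edgeR adjusted p = 0.903, SE 0.11). At 10.7 ± 0.9 CPM per kilobase in KO and 11.2 ± 1.1 in controls (SD, n = 3 each), its level per length lay between those of Mcl1 and Bcl2l1. The near-identical copies Bcl2a1a, Bcl2a1b and Bcl2a1d had at most 8 counts in any library, and Bcl2l10 had 1 count in all 6 libraries together.

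Of 10 other effector, BH3-only or related genes, 8 passed the filter and none was called by edgeR or had an unadjusted p under 0.05, with 3 positive and 5 negative values and a median of -0.02. Bok, a BAX-like gene, had 6.53, 5.61 and 3.88 CPM in KO 1, 2 and 3, against 7.94, 6.23 and 4.65 CPM in controls (log2 fold change -0.21, SE 0.25, edgeR adjusted p = 0.858). Bcl2l13, which encodes a mitochondrial protein with a role in mitophagy, had 33.4, 36.1 and 37.6 CPM in KO, against 31.8, 33.3 and 32.8 CPM in controls. Its KO libraries were all above the controls, as in 7.94% of all tested genes (log2 fold change 0.13, SE 0.09, edgeR adjusted p = 0.759). Bcl2l14 had 17 to 29 counts in KO and 11 to 25 in controls (log2 fold change 0.30, SE 0.43, edgeR adjusted p = 0.887). Bcl2l15 had 0 counts in every library, and Hrk, a BH3-only gene known from neurons, had at most 2.

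Among 12 mitochondrial genes that act beside or below the family, none was called by edgeR. Only Vdac2 had an unadjusted p under 0.05, where 7.37% of all tested genes had one. Of the 12, 10 had negative values and 2 positive, with a median of -0.09, beside 52.2% of all tested genes with negative values. Vdac2 encodes the outer membrane channel to which BAK is bound in resting cells. Vdac2 had 71.3, 69.7 and 59.0 CPM in KO 1, 2 and 3, against 90.1, 77.4 and 76.8 CPM in controls. Every KO library was below every control, as for Bak1 and 5.94% of all tested genes. The value of Vdac2 did not pass over all genes (log2 fold change -0.29, SE 0.11, edgeR adjusted p = 0.628). Cycs, which encodes the cytochrome c of somatic cells, had 19.7, 23.0 and 17.0 CPM in KO, against 23.5, 24.8 and 22.4 CPM in controls (log2 fold change -0.25, SE 0.12, edgeR adjusted p = 0.706). The channel gene Vdac3 had a value of -0.19 (SE 0.11, edgeR adjusted p = 0.744).

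Of 15 transcription factors that act on genes of the family, none was called, with 8 positive and 7 negative values. The 3 with an unadjusted p under 0.05 in edgeR were Ddit3, Atf4 and Stat5b, where 7.37% of all tested genes had one. Ddit3 encodes CHOP, which is known to raise Bbc3 and Bcl2l11 and to repress Bcl2 under stress of the endoplasmic reticulum. Ddit3 had 3.93, 4.80 and 5.21 CPM in KO 1, 2 and 3, against 7.30, 7.92 and 8.50 CPM in controls (log2 fold change -0.77, SE 0.16, edgeR adjusted p = 0.214). Every KO library was below every control, as in 5.94% of all tested genes. Mars, on the opposite strand, shares 68 exonic bases, or 4.0% of the exonic length of Ddit3. It had 605 to 1459 counts per library, so reads of the pair may not be fully separated. Beside Ddit3, Bbc3 and Bcl2l11 had the values of 0.00 and 0.01 given above, and Bcl2 -0.32, or -0.10 without KO 2. An effect of Ddit3 on these genes was not tested. Atf4, which acts on Ddit3, had a value of -0.46 (SE 0.11, edgeR adjusted p = 0.358), and Stat5b, a mediator of prolactin signalling, 0.22 (SE 0.09, edgeR adjusted p = 0.665). Trp53, which encodes p53, had a value of -0.08 (SE 0.12), and Foxo3, an activator of Bcl2l11 and Bbc3, 0.22 (SE 0.13).

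Of 23 genes whose proteins modify or bind BCL2 family proteins, none was called by edgeR, with 10 positive and 13 negative values and a median of -0.03. Only Pim3 had an unadjusted p under 0.05, where 7.37% of all tested genes had one. Pim3 encodes a kinase of a family that phosphorylates BAD. Pim3 had 31.0, 31.4 and 23.1 CPM in KO 1, 2 and 3, against 27.0, 20.0 and 17.0 CPM in controls, with KO 3 below control 1 (log2 fold change 0.43, SE 0.18, edgeR adjusted p = 0.671). It passed with the acinar score as a covariate (0.52, edgeR adjusted p = 0.0367). Btrc, a subunit of a ubiquitin ligase that acts on BIM, had a value of 0.22 (SE 0.12, edgeR adjusted p = 0.727). Its KO libraries all lay above the controls, as in 7.94% of all tested genes. Fbxw7, a subunit of a ubiquitin ligase that acts on MCL1, had a value of 0.22 (SE 0.12, edgeR adjusted p = 0.730).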

How the data were processed

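The authors deposited raw read counts per gene for 6 islet libraries, together with the exonic length of each gene in bases, which is another deposited quantity. The submitters' processing notes name STAR 2.7.9, featureCounts 2.0.0 and the builds GRCm38.p6 and mm10. Which annotation release was counted, whether strand was used and how multi-mapped reads were handled is not given in the sources used here. Per the labels' protocols, the library kit was one for mRNA. The column names of all 3 KO libraries end in a suffix of unstated meaning, which no control column carries. A technical difference marked by it could not be told apart from genotype. Of 55401 gene identifiers, 55141 matched a symbol.

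Counts were tested with edgeR 4.0.16 (R 4.3.3, glmQLFit and glmQLFTest, TMM, filterByExpr at its minimum of 10 counts and 15 in total), with genotype as the only term and Benjamini-Hochberg adjustment over 14212 genes at 0.05, two-sided. The SE is the fold change over the root of the F statistic, and 95% intervals use the test's degrees of freedom. Ratios were computed from CPM per kilobase, in which they do not depend on library scaling. The BH3 core was found in translated GENCODE vM21 coding sequences as a leucine followed, after 3 residues, by glycine, alanine or serine and then aspartate. Members and lists were chosen with earlier results of these data known. In the other lists, up to 3 genes with the smallest p were named, and further genes were named after their values were seen for their role. Libraries were checked for duplicates (chi-square per degree of freedom of at least 13.3 in every pair), and the test was checked on simulated counts. Alternatives included DESeq2 1.42.0. Other tools were Python 3.11.15, pandas 2.3.3, NumPy 2.4.6, Biopython 1.88 and matplotlib 3.10.9.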

Additional observations from a re-analysis of the deposited data

How the results depend on the processing

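No member passed the threshold in any of 120 combinations of the 10 members and 12 alternatives, and the smallest adjusted p was 0.520, for Bak1 without KO 2 (edgeR). DESeq2 gave no adjusted p for Pmaip1. Direction was kept in 105 of them, in every one for Bcl2, Bcl2l1, Bax and Bak1, with Bak1 from -0.40 to -0.28. Leaving out each library gave Bcl2 from -0.47 to -0.10, Bcl2l1 from 0.043 to 0.17, Mcl1 from -0.042 to 0.10, Bid from -0.15 to 0.17, Bcl2l11 from -0.076 to 0.14, Bbc3 from -0.18 to 0.13, Pmaip1 from -0.072 to 0.60, Bad from -0.16 to 0.10, Bcl2l2 from -0.12 to 0.015, Bok from -0.40 to -0.007, Bcl2l14 from -0.11 to 0.61, Trp53 from -0.14 to 0.013 and Foxo3 from 0.077 to 0.30. With the ribosomal RNA covariate Bcl2l1 was 0.18, Bid -0.037, Bbc3 -0.36, Bad 0.014, Bok 0.057, Trp53 0.031, Foxo3 0.038 and Fbxw7 0.020, and without the filter on low counts Bbc3 was -0.0012. The cause of these shifts was not tested. The ribosomal RNA share did not overlap between the groups, so that covariate cannot be fully separated from genotype. The log2 difference of the ratio of all members lay between 0.036 and 0.22 when 1 library was dropped, was -0.06 with genes weighted equally and -0.36 for Bcl2 over Bax alone.

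Over all genes the 10 calls became 300 without the filter on low counts, 49 with the acinar score, 48 with DESeq2, 0 with the ribosomal RNA covariate (edgeR, 214 genes at an unadjusted p under 0.05) and 2 to 6 with a library left out, where fewer samples enter. The 0 calls came from a covariate whose values did not overlap between KO and control. With the replicate block there were 36 calls. The correlation of deviations between libraries of the same number was 0.16, -0.16 and 0.14, so the numbers do not show a pairing. Outside the members, Ddit3 (edgeR adjusted p = 0.00337), Atf4 (0.0273) and Pim3 (0.0462) passed without the filter. For Ddit3 that fit gave a larger SE (0.18, against 0.16 in the main fit) at nearly the same log2 fold change (-0.78, against -0.77). Its lower p there thus reflects how that fit models variance, and the 300 calls were made with the same fit. Depth limited Pmaip1 most, at 3 to 19 counts.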
